A study of Mus musculus with 53 samples.

Results

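Transforming growth factor beta (TGF-beta) signalling was followed through 9 genes in 53 mouse liver samples: the ligand genes Tgfb1, Tgfb2 and Tgfb3, the receptor genes Tgfbr1 and Tgfbr2, the latency genes Ltbp1 and Ltbp2, the integrin gene Itgav and the TGF-beta-induced gene Tgfbi. They were chosen by symbol, with earlier results of these data known. Each is 1 row of the 3 count tables, and the tables hold 38293 genes (diet), 38293 genes (CCl4) and 53379 genes (hepatectomy). Every library is messenger RNA from snap-frozen liver tissue of 1 male C57BL/6J mouse, either wild type or labelled as a knockout of Bmp8b, a member of the bone morphogenetic protein family. The study asked how Bmp8b bears on steatohepatitis, acute liver injury and regeneration, in 3 experiments with 3 groups each.

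In the diet experiment, mice of 9 weeks of age ate a Western diet (Teklad TD88137) for 32 weeks, with 7 labelled knockout and 7 wild-type livers, or a low-fat diet (TD08485), with 9 wild-type livers. In the toxin experiment, mice of 16 weeks of age received 1 intraperitoneal injection of 2 µl per g, of carbon tetrachloride (CCl4, a toxin activated in hepatocytes) mixed with olive oil or of olive oil alone, and were killed on day 3. It holds 6 labelled knockout and 4 wild-type livers after CCl4, and 6 wild-type livers after olive oil. In the surgery experiment, also at 16 weeks of age, liver was taken on day 3 after partial hepatectomy from 4 labelled knockout and 5 wild-type mice. Liver resected from 5 wild-type mice on day 0 is its control. The wild-type livers of day 0 and day 3 carry the same mouse numbers, 12 to 16, and were fitted as unpaired. The labels do not say whether they come from the same mice. No labelled knockout liver was taken under a control condition, so the label can be compared only among challenged livers.

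TGF-beta is secreted as a latent complex: the mature ligand stays wrapped in its own propeptide, which is bound to a latent TGF-beta binding protein and, through it, to the extracellular matrix. Integrins that contain the alpha v chain pull on the propeptide and free the ligand, which then binds the type II receptor. The type II receptor recruits and phosphorylates the type I receptor, and SMAD proteins carry the signal to the nucleus. In liver the pathway is known for driving stellate cells to become collagen-producing myofibroblasts and for restraining hepatocyte division.

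The libraries of the diet experiment held 8963187 to 15196537 counts each, those of the toxin experiment 2661699 to 6364414 and those of the surgery experiment 2450358 to 6914274. Hepatocyte marker genes summed to between 58525 and 158981 counts per 1000000 counts (CPM) in every liver. Labelled knockout livers did not show less Bmp8b. On Western diet it ran from 0.718 to 2.23 CPM in labelled knockout and from 0.520 to 1.79 CPM in wild-type livers, and gene totals do not show which exons were read. After CCl4 it ran from 0.266 to 2.62 CPM in labelled knockout and from 0 to 1.33 CPM in wild-type livers, and on day 3 of hepatectomy from 1.08 to 2.63 CPM in labelled knockout and from 0.358 to 1.31 CPM in wild-type livers. The group is therefore called labelled knockout throughout. After CCl4, 2 libraries were unlike the other 8, labelled knockout liver 35 and wild-type liver 34. Their proliferation markers summed to 36.5 and 25.9 CPM, against 195.9 to 703.7 CPM in the others, and their monocyte-derived macrophage markers to 872.4 and 603.5 CPM, against 192.8 to 407.2 CPM. The fold changes printed for that experiment's edgeR comparisons of the 9 genes are also given without 1 or both of them. Values are CPM after normalization within an experiment, so levels of different experiments were scaled separately.

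Per kilobase of exon, Tgfbi, which encodes a secreted matrix protein named for its induction by TGF-beta, had the highest mean level of the 9 genes in all 9 groups, from 9.25 CPM per kb on day 0 of hepatectomy to 25.9 CPM per kb in wild-type livers on Western diet. It made up 40.5% to 56.6% of the summed level per kb of the 9 genes. The receptors came next, with Tgfbr2 above Tgfbr1 in 7 groups. In the other 2 groups, both of them controls, the order was the other way, at 3.64 CPM per kb for Tgfbr2 and 5.02 for Tgfbr1 on low-fat diet and at 3.27 and 4.41 after olive oil. Itgav was the fourth and Tgfb1 the fifth in every group, so Tgfb1 was the ligand with the highest level throughout, at 0.883 to 2.19 CPM per kb. Tgfb2 was lowest in every group, at 0.0536 to 0.299 CPM per kb, and had counts of 0 in 1 liver after CCl4, 2 after olive oil and 2 on day 0 of hepatectomy.

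**Figure D1:**
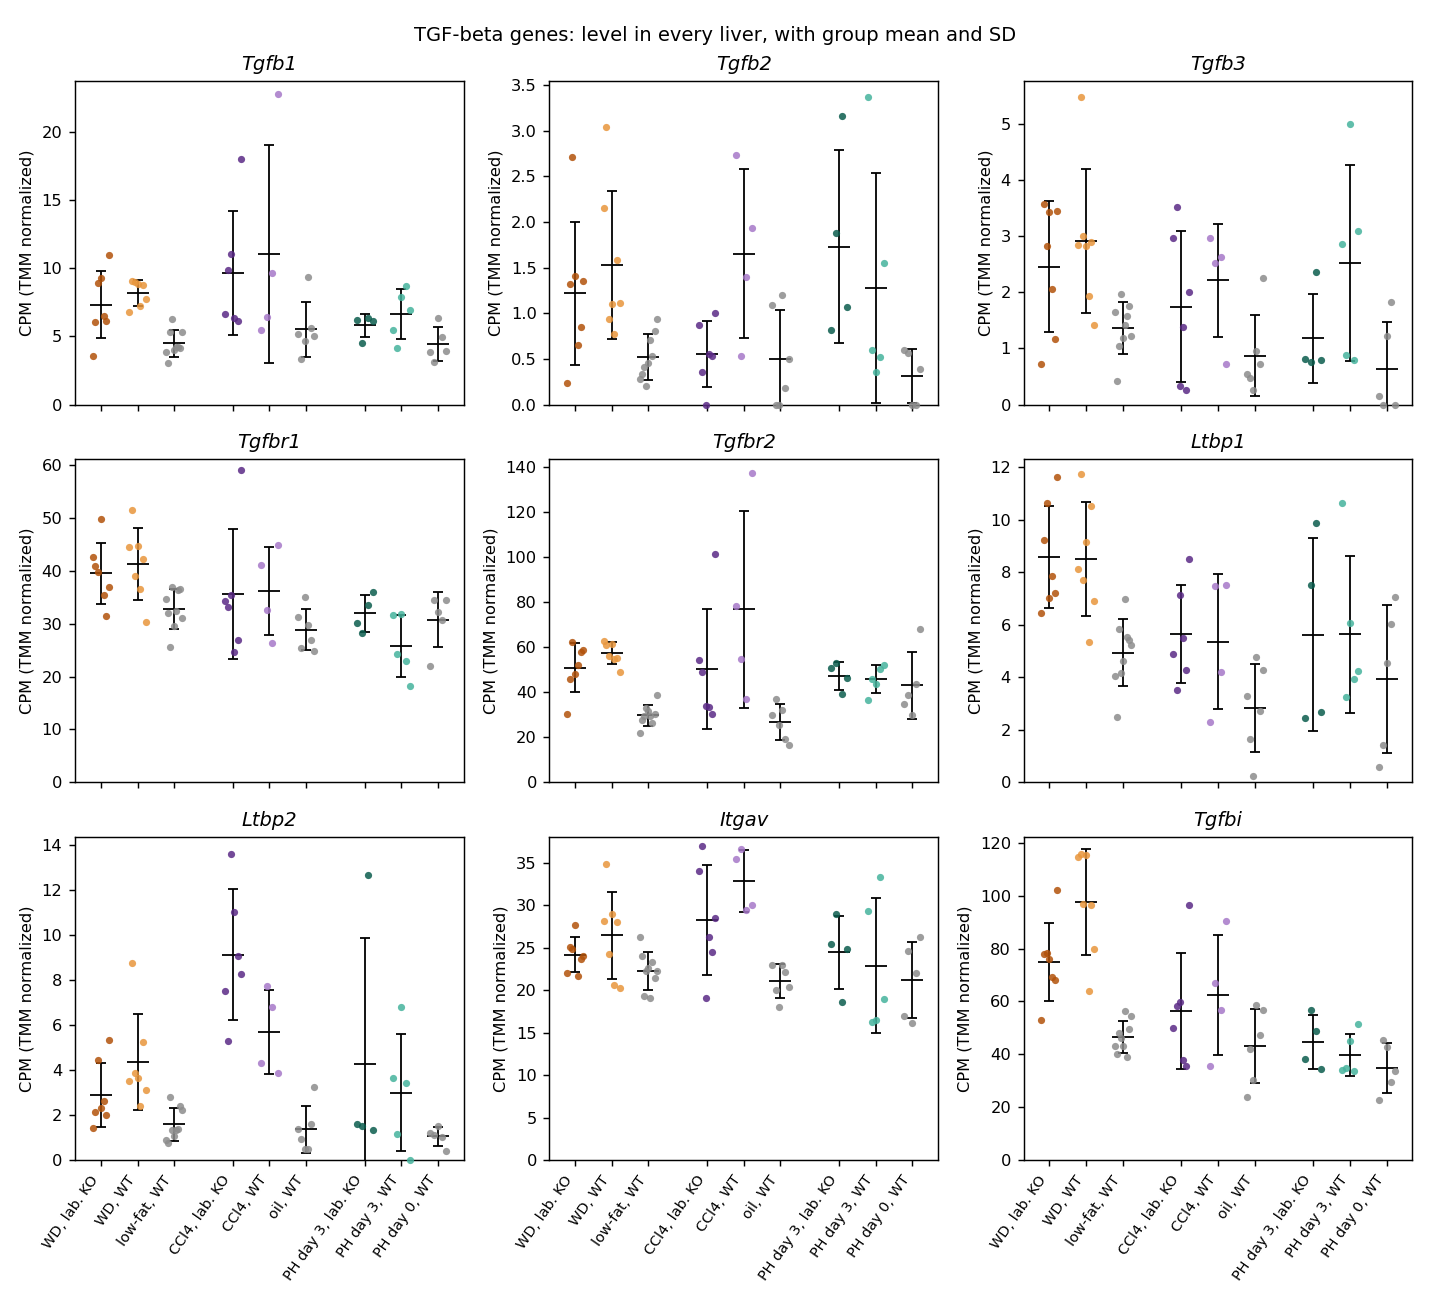
Level of each of the 9 genes in every liver, in CPM on a linear axis that starts at 0. Points are single livers, horizontal bars are group means and error bars are 1 SD, cut at 0 where the SD is larger than the mean (Ltbp2 in labelled knockout livers on day 3, Tgfb2 after olive oil and Tgfb3 on day 0). All 7 wild-type livers on Western diet lie above all 9 low-fat livers for Tgfb1, Tgfbr2 and Tgfbi.

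Positions are on GRCm38. Tgfb1 (ENSMUSG00000002603) lies at chr7:25687002-25705077 on the plus strand, Tgfb2 (ENSMUSG00000039239) at chr1:186622792-186705989 on the minus strand and Tgfb3 (ENSMUSG00000021253) at chr12:86056745-86079041 on the minus strand. Tgfbr1 (ENSMUSG00000007613) lies at chr4:47353222-47414931 on the plus strand and Tgfbr2 (ENSMUSG00000032440) at chr9:116084293-116175360 on the minus strand. Ltbp1 (ENSMUSG00000001870) lies at chr17:75005568-75392512 on the plus strand, Ltbp2 (ENSMUSG00000002020) at chr12:84783212-84876532 on the minus strand, Itgav (ENSMUSG00000027087) at chr2:83724397-83806916 on the plus strand and Tgfbi (ENSMUSG00000035493) at chr13:56609523-56639562 on the plus strand. Exons of Tgfb2, Tgfb3, Ltbp2 and Itgav overlap genes on the opposite strand, and the strand setting of the counting is not given in the sources used here, so reads of both strands cannot be told apart. The overlapping genes that the tables list had 0 to 3 counts per library.

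Tgfbr2, Ltbp2 and Itgav were called higher in wild-type livers both on Western diet and after CCl4, as described below. The bases before the start sites of Tgfbr2 and Ltbp2 are shown for that reason, and Itgav is named only. The RefSeq table gives a promoter for 8 of the 9 genes. Both sequences are on GRCm38.p6, read along the minus strand in the direction of transcription and end before the annotated gene. Capitals mark CAGAC, the core of the SMAD binding element, or its reverse complement.
Tgfbr2, chr9:116175364-116175613: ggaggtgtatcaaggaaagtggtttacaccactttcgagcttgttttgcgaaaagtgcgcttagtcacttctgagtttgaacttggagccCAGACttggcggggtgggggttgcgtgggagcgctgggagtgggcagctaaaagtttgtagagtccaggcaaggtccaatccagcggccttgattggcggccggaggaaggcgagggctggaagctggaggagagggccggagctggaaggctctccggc
Ltbp2, chr12:84876559-84876741: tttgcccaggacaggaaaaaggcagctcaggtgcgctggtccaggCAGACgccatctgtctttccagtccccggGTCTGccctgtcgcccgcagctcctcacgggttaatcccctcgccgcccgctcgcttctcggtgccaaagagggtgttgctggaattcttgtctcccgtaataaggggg
The 250 bases of Tgfbr2 hold 1 match to CAGAC on either strand, as do 42.2% of the 32851 promoters of that length. The 183 bases of Ltbp2 hold 2, and 33.6% of promoters cut to that length hold at least 1. TGANTCA, the AP-1 motif, is in neither window and in 6.75% and 4.99% of promoters at these lengths. GGGCGG, the Sp1 motif, has 0 matches before Tgfbr2 and 1 before Ltbp2, against 32.7% and 21.5% of promoters with a match. The searched motifs do not overlap in these windows, and the matches are a description of the letters only.

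All 9 genes were higher in wild-type livers fed Western diet than in those fed low-fat diet, by 1.19-fold for Itgav to 2.87-fold for Tgfb2. The rises were 1.84-fold to 2.87-fold for the ligands, 1.26-fold and 1.92-fold for the receptors and 2.09-fold for Tgfbi. All 9 passed edgeR's quasi-likelihood test at an adjusted p under 0.05, beside 20.4% of the 13005 tested genes that were called higher. The median log2 fold change was 0.94 over the 9 genes and -0.02 over all tested genes. In whole tissue, more cells of a type and more RNA per cell cannot be told apart.

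Of the ligands, Tgfb1, the isoform made by many liver cell types, ran from 6.75 CPM (median 8.76) to 9.06 CPM in the 7 livers on Western diet and from 3.01 CPM (median 4.23) to 6.25 CPM on low-fat diet. The groups did not overlap, and the log2 fold change was 0.88 (SE 0.17, edgeR adjusted p = 0.000309). Tgfb2 ran from 0.774 CPM (median 1.12) to 3.04 CPM on Western diet and from 0.208 CPM (median 0.455) to 0.937 CPM on low-fat diet. Only liver 14 was above 2.5 CPM, and 2 of the 7 Western-diet livers lay within the low-fat range (log2 fold change 1.52, SE 0.38, edgeR adjusted p = 0.00259). Tgfb3 ran from 1.41 CPM (median 2.84) to 5.49 CPM on Western diet, the highest again in liver 14, and from 0.418 CPM (median 1.41) to 1.98 CPM on low-fat diet. Livers 36 and 32 lay within the low-fat range, and the rise was 2.15-fold (edgeR adjusted p = 0.00669).

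The type II receptor gene Tgfbr2 ran from 49.1 CPM (median 56.0) to 62.9 CPM on Western diet and from 21.7 CPM (median 29.7) to 38.8 CPM on low-fat diet. The lowest Western-diet liver was well above the highest low-fat liver, with a log2 fold change of 0.94 (SE 0.11, edgeR adjusted p = 3.82e-06). The type I receptor gene Tgfbr1 ran from 30.3 CPM (median 42.2) to 51.5 CPM on Western diet and from 25.5 CPM (median 32.4) to 37.0 CPM on low-fat diet. Its groups overlapped, and its log2 fold change of 0.33 (SE 0.10, edgeR adjusted p = 0.0111) was the smallest but that of Itgav. The difference between the rises of the 2 receptors was not tested.

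Of the genes for latency, Ltbp1, whose product anchors the latent complex in the matrix, ran from 5.34 CPM (median 8.12) to 11.7 CPM on Western diet and from 2.51 CPM (median 5.25) to 6.97 CPM on low-fat diet. Ltbp2, whose product belongs to the same family but does not bind latent TGF-beta, ran from 2.40 CPM (median 3.65) to 8.76 CPM and from 0.753 CPM (median 1.35) to 2.81 CPM. Livers 32 and 36 lay within the low-fat range for Ltbp1 and liver 32 for Ltbp2, with log2 fold changes of 0.79 (SE 0.18, edgeR adjusted p = 0.00125) for Ltbp1 and 1.46 (SE 0.30, edgeR adjusted p = 0.000567) for Ltbp2. Itgav, the alpha v chain of the activating integrins, averaged 26.5 ± 5.13 CPM (SD, n = 7) on Western diet and 22.3 ± 2.21 CPM (SD, n = 9) on low-fat diet. Its call was the weakest (log2 fold change 0.25, SE 0.09, edgeR adjusted p = 0.0404) and was lost in 15 of 32 alternatives, among them the fit without wild-type liver 14. Tgfbi ran from 63.9 CPM (median 96.8) to 116 CPM on Western diet and from 39.03 CPM (median 46.4) to 56.3 CPM on low-fat diet. Its groups did not overlap, and it had the smallest adjusted p of the 9 genes (log2 fold change 1.06, SE 0.12, edgeR adjusted p = 2.08e-06).

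Groups without overlap, higher on Western diet, were seen for 3 of the 9 genes and for 4.72% of all tested genes. Livers 5, 14, 23 and 34 lay above every low-fat liver for all 9 genes, while liver 32 did so for 3 and liver 36 for 5. Liver 14 was the highest of its group for 8 of the 9 genes. The libraries carried 1 of 2 i5 index sequences. Within index D501, with 3 livers on Western diet and 4 on low-fat diet, 8 genes were called, and within D502, with 4 and 5 livers, 3 were called. Calls over all tested genes also fell within D502, from 4869 in the full fit to a count given in the last section. The drop was thus not particular to the 9 genes. Within D502 the log2 fold changes were 0.73 for Tgfb2, 0.66 for Tgfb3, 0.21 for Tgfbr1, 0.52 for Ltbp1 and 1.08 for Ltbp2, none of them called, and Itgav was called within neither index.

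Marker genes of several cell types also differed between the diets. In wild-type livers, stellate cell and myofibroblast markers summed to 526.1 to 979.0 CPM on Western diet and to 305.8 to 417.7 CPM on low-fat diet, and 9 of 12 were called higher. The 10 monocyte-derived macrophage markers were all called higher, with sums of 179.9 to 579.7 CPM on Western diet and 59.98 to 121.6 CPM on low-fat diet. The Kupffer cell markers, of which 6 of 8 were called higher, summed to 390.1 to 792.3 CPM and 162.7 to 435.2 CPM, and 6 of 8 hepatocyte markers were called lower. Among the other lists with at least 5 tested markers, 7 of 7 for proliferation and 5 of 8 for sinusoidal endothelium were called higher. So were 4 of 6 for cholangiocytes and 0 of 5 for B cells. Of all tested genes, 20.4% were called higher and 17.0% lower. No marker of these lists was at 0 in all livers. Their part in the rise of the 9 genes was not tested.

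**Figure D2:**
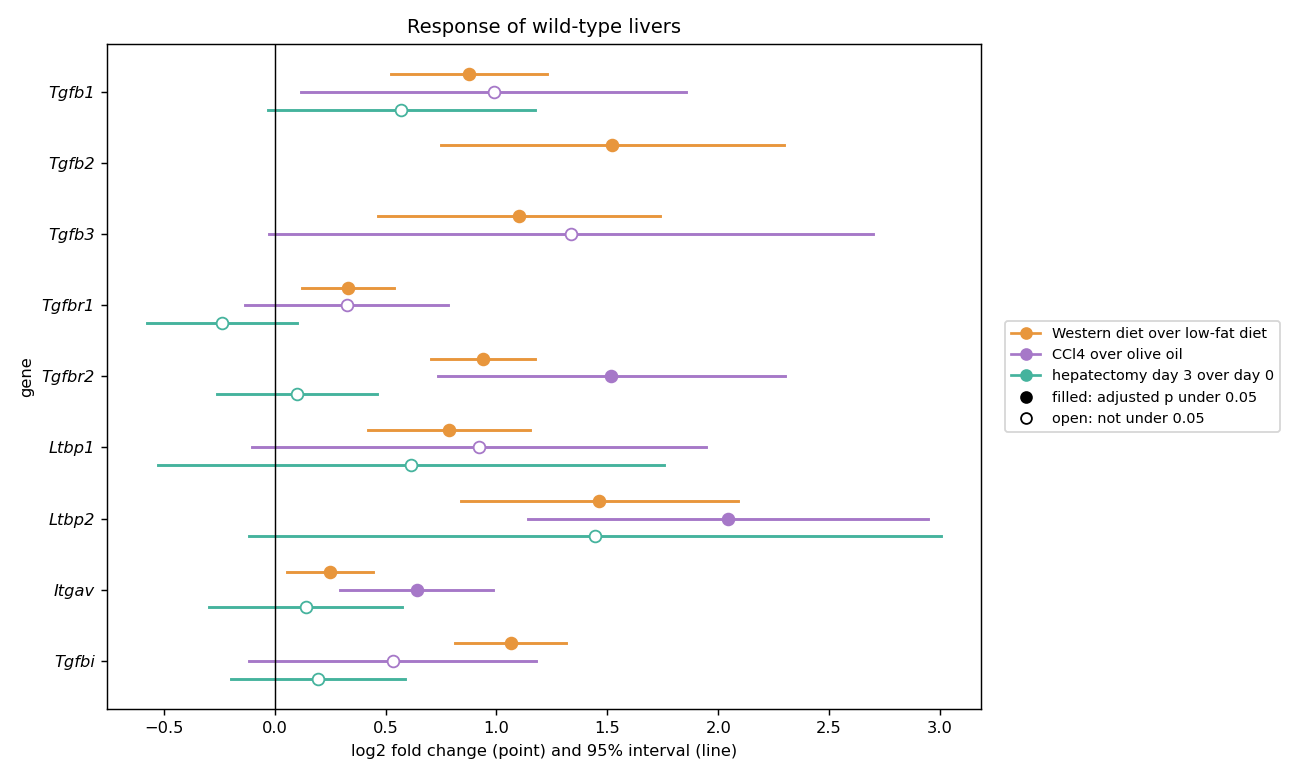
Log2 fold change of each gene in wild-type livers, with 95% confidence intervals, for Western diet over low-fat diet, CCl4 over olive oil and hepatectomy day 3 over day 0. Filled symbols passed edgeR's test at an adjusted p under 0.05. All 9 genes passed on Western diet, 3 of 8 tested after CCl4 and 0 of 7 tested after hepatectomy.

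After CCl4, 3 of the genes were higher in wild-type livers than after olive oil: Ltbp2 by 4.12-fold, Tgfbr2 by 2.86-fold and Itgav by 1.56-fold. The test could be made for 8 of the 9 genes, since Tgfb2 had too few counts for the fit. The 3 calls stand beside 11.1% of the 11663 tested genes called higher. The median log2 fold change was 0.95 over the 8 genes and 0.05 over all tested genes, and 4 of the 8 had an unadjusted p under 0.05.

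Ltbp2 had 7.73, 6.82, 4.34 and 3.87 CPM in the 4 wild-type livers after CCl4, against 0.478 CPM (median 1.16) to 3.27 CPM in the 6 olive oil livers. Every CCl4 liver was above every olive oil liver (log2 fold change 2.04, SE 0.43, edgeR adjusted p = 0.00399). Tgfbr2 had 137, 78.1, 54.8 and 36.9 CPM after CCl4, against 16.6 CPM (median 27.8) to 36.9 CPM after olive oil. The groups were separate, though only just for liver 7, and the log2 fold change was 1.52 (SE 0.37, edgeR adjusted p = 0.00957). Liver 34 gave the highest of these values, and without it the log2 fold change of Tgfbr2 was 1.08 (edgeR adjusted p = 0.0420). Itgav had 36.6, 35.4, 30.0 and 29.4 CPM after CCl4, against 18.0 CPM (median 21.3) to 22.99 CPM after olive oil. All 4 CCl4 livers were above all 6 olive oil livers (log2 fold change 0.64, SE 0.16, edgeR adjusted p = 0.0118). Without liver 34 the log2 fold changes of Ltbp2 and Itgav were 2.19 and 0.68, both called. These are the 3 genes whose groups did not overlap, as for 7.91% of all tested genes in that direction.

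Tgfb1 had 22.8 CPM in liver 34 and 9.62, 6.40 and 5.48 CPM in the other CCl4 livers, against 3.33 CPM (median 5.12) to 9.33 CPM after olive oil. The log2 fold change was 0.99 (SE 0.41, edgeR adjusted p = 0.1005) and 0.38 without liver 34. Tgfb3 averaged 2.21 ± 1.008 CPM (SD, n = 4) after CCl4 and 0.870 ± 0.722 CPM (SD, n = 6) after olive oil, at an edgeR adjusted p of 0.154. Tgfbr1, Ltbp1 and Tgfbi had log2 fold changes of 0.33, 0.92 and 0.53 at edgeR adjusted p of 0.308, 0.193 and 0.234. Without liver 34 the log2 fold changes were 0.21 for Tgfbr1, 0.74 for Ltbp1 and 0.31 for Tgfbi, and that of Tgfb3 was 1.61, against 1.34 with it. Tgfb2 had 2.74, 1.94, 1.40 and 0.533 CPM after CCl4, against 0 to 1.20 CPM after olive oil. The difference on the log2(CPM + 0.5) scale was 1.17 (exact two-sided permutation test, p = 0.0476, adjusted p = 0.107 over the 9 tests of this kind).

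The i5 index largely followed the treatment in this experiment: 3 of the 4 wild-type CCl4 libraries carried D503, which no olive oil library carried. D505 held 1 wild-type CCl4 library and 3 olive oil libraries, too few for a comparison within the index. Wild-type liver 34 was that CCl4 library, and labelled knockout liver 35 was the only other CCl4 library with D505. Among CCl4 livers, D505 thus coincided with the livers described above as unlike the others. With the index as a covariate, which rests on the few shared index sequences, 3 genes were again called. However, Tgfb1 entered (log2 fold change 1.28, edgeR adjusted p = 0.0141) and Itgav left (0.49, edgeR adjusted p = 0.0861). Without the covariate, the log2 fold change of Tgfb1 was 0.99 with liver 34 and 0.38 without it. Whether the Tgfb1 call with the covariate rested on liver 34 was not tested. Without livers 34 and 35, an alternative chosen after seeing the data, Ltbp2, Tgfbr2 and Itgav all kept their calls. Stellate cell and myofibroblast markers summed to 418.2 to 1047 CPM in wild-type livers after CCl4 and to 178.8 to 400.7 CPM after olive oil, with 4 of 12 called higher. Of that list, Col3a1 and Col1a1 averaged 256 and 114 CPM in wild-type livers after CCl4 and 33.2 and 11.1 CPM after olive oil. The monocyte-derived macrophage markers, 7 of 9 tested called higher, summed to 269.6 to 603.5 CPM and 37.8 to 105.7 CPM. Of the Kupffer cell markers 1 of 8 was called higher, and of the sinusoidal endothelium markers 0 of 8, with 2 called lower. Of all tested genes, 11.1% were called higher and 8.87% lower. The part of these markers in the differences was not tested.

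On day 3 after hepatectomy, 0 of the 7 tested genes differed by edgeR from day 0 in wild-type livers, and 0 had an unadjusted p under 0.05. DESeq2 and limma voom also called 0, while edgeR called 17.4% of the 11026 tested genes in either direction. No gene had separate groups, against 7.04% of all tested genes higher on day 3 without overlap. The median log2 fold change was 0.20 over the 7 genes and -0.00 over all tested genes.

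Tgfbr2 had 52.2, 50.4, 46.0, 43.6 and 36.3 CPM on day 3 and 68.2, 43.5, 38.7, 34.7 and 30.1 CPM on day 0. The ranges overlapped almost fully, and the log2 fold change was 0.10 with a 95% confidence interval of -0.26 to 0.46. Tgfbi had 51.4, 45.1, 34.7, 34.3 and 33.6 CPM on day 3 and 45.5, 42.9, 33.7, 29.6 and 22.7 CPM on day 0. Its log2 fold change of 0.20 had an interval of -0.19 to 0.59. Tgfbr1 gave the only negative value (-0.24, interval -0.57 to 0.10, edgeR adjusted p = 0.362). Ltbp2 had 6.79, 3.63, 3.41, 1.19 and 0 CPM on day 3 and 1.52, 1.19, 1.13, 1.05 and 0.392 CPM on day 0. Its log2 fold change of 1.44 (SE 0.75, edgeR adjusted p = 0.208) had an interval of -0.12 to 3.00, which takes in a rise of several fold.

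Tgfb2 and Tgfb3 had too few counts for the fit in this experiment. Tgfb3 had 5.01, 3.09, 2.86, 0.890 and 0.788 CPM on day 3, against 1.83, 1.22, 0.149, 0 and 0 CPM on day 0. The difference on the log2(CPM + 0.5) scale was 1.503 (exact two-sided permutation test, p = 0.0476, adjusted p = 0.107). For Tgfb2 the difference was 0.97, with an exact p of 0.119 and an adjusted p of 0.190. A count of 0 allows up to 3 counts in these libraries, so low values of these 2 ligands carry wide counting error.

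Day 3 livers also differed among themselves in markers of mesothelial cells, which line the liver surface. Mesothelial markers summed to 37.9 CPM in labelled knockout liver 19, 32.2 CPM in wild-type liver 12 and 27.9 CPM in wild-type liver 14, against 2.17 to 15.4 CPM in the other day 3 livers and 0 to 1.18 CPM on day 0. Upk3b and Upk1b, 2 of the 5 mesothelial markers, were at 0 in every day 0 liver. The stellate cell and myofibroblast markers were also highest in these livers, at 655.4, 891.5 and 694.0 CPM, against 249.7 to 396.9 CPM in the other day 3 livers. Ltbp2 stood at 12.6, 3.63 and 6.79 CPM in the 3 livers. The titles of these 3 livers, of day 3 liver 13 and of day 0 liver 12 carry an N that the labels do not explain. Whether the markers or the N account for Ltbp2 was not tested. Without wild-type liver 12 or 14, Ltbp2 had too few counts for the fit. All day 3 libraries carried i5 index D507 and all day 0 libraries D505 or D506, so the index and the day cannot be told apart.

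The responses of wild-type livers to the 3 challenges were compared in a joint fit of the 53 libraries. Tgfbr2 differed between CCl4 and hepatectomy by 1.40 on the log2 scale (SE 0.36, edgeR adjusted p = 0.0137), the only 1 of the 9 genes called there, beside 6.09% of the 12646 tested genes. That call was lost with limma voom (0.77) and without wild-type CCl4 liver 34 (0.98). Between Western diet and CCl4, edgeR called 0 of the 9 genes, 0 had an unadjusted p under 0.05 and voom called 0, beside 16.1% of tested genes. Between Western diet and hepatectomy, edgeR called 0 of the 9 genes and 3.53% of tested genes, but 3 genes had an unadjusted p under 0.05 and voom called 3. They were Tgfbi (difference 0.88, edgeR adjusted p = 0.0779), Tgfbr2 (0.85, edgeR adjusted p = 0.129) and Tgfbr1 (0.58, edgeR adjusted p = 0.123). The larger number of calls on Western diet is thus not shown by edgeR to be a larger response for any of the 9 genes, and the diet libraries were sequenced more deeply and had more livers.

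Labelled knockout livers on Western diet did not differ by edgeR from wild-type livers on the same diet in any of the 9 genes. edgeR, DESeq2 and voom each called 0, and edgeR called 0.0154% of all tested genes. The log2 fold change was negative for 8 of the 9 genes, with a median of -0.17, against -0.00 over all tested genes. Tgfbi was the 1 gene with an unadjusted p under 0.05: it ran from 53.2 CPM (median 76.2) to 102 CPM in labelled knockout livers and from 63.9 CPM (median 96.8) to 116 CPM in wild-type livers. Its groups overlapped, and the log2 fold change of -0.38 (95% confidence interval -0.64 to -0.11) had an edgeR adjusted p of 0.813. Ltbp2 had a log2 fold change of -0.59 (interval -1.22 to 0.05). For Tgfb1 the interval was -0.51 to 0.21 and for Tgfbr2 -0.42 to 0.08, so differences of over 1.5-fold in these 2 genes lay outside it.

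Labelled knockout liver 1 was the lowest of its group for 7 of the 9 genes. Its mean difference from the low-fat livers was -0.03 on the log2(CPM + 0.5) scale over the 9 genes, and its stellate cell sum of 358.1 CPM lay within the low-fat range. Against the same 9 low-fat livers, 7 genes were called higher in labelled knockout livers (15.1% of all tested genes), with log2 fold changes from 0.69 for Tgfbi to 1.20 for Tgfb2. Tgfbr1 (0.27, edgeR adjusted p = 0.0520) and Itgav (0.12, edgeR adjusted p = 0.391) were not called. This comparison shares its controls with that of the wild-type livers, so the 2 counts are not independent, and it mixes label with diet. The count was 4 without labelled knockout liver 35 or liver 4, and 3 within either i5 index. Calls over all tested genes also fell within either index, from 3282 in the full fit to the counts given in the last section.

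**Figure D3:**
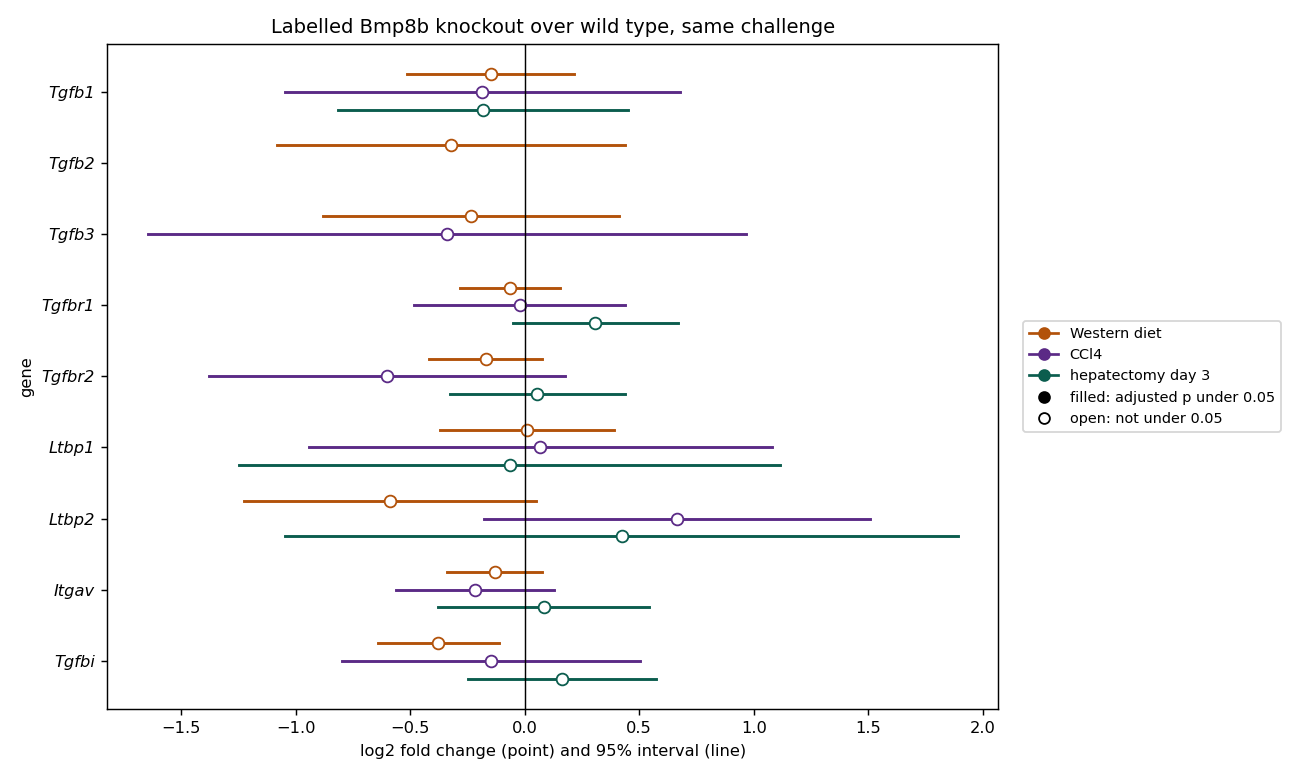
Log2 fold change of each gene in labelled knockout over wild-type livers, with 95% confidence intervals, on Western diet, after CCl4 and on day 3 of hepatectomy. No gene passed edgeR's test in any of the 3 comparisons, and among the tested genes only the interval of Tgfbi on Western diet leaves out 0.

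After CCl4, edgeR called 0 of the 8 tested genes between labelled knockout and wild-type livers, 0 had an unadjusted p under 0.05, DESeq2 and voom called 0, and 0.00857% of all tested genes were called. Tgfbr2 ran from 30.4 CPM (median 41.3) to 101 CPM in labelled knockout livers, against 137, 78.1, 54.8 and 36.9 CPM in wild-type livers (log2 fold change -0.60, 95% interval -1.38 to 0.17). Ltbp2 ran from 5.28 CPM (median 8.66) to 13.6 CPM in labelled knockout livers, against 3.87 to 7.73 CPM in wild-type livers (0.66, interval -0.18 to 1.51). The groups overlapped for both. Without livers 34 and 35 the log2 fold changes were -0.49 for Tgfbr2 and 0.54 for Ltbp2. Tgfb2 ran from 0 to 1.001 CPM in labelled knockout and from 0.533 to 2.74 CPM in wild-type livers, with a difference of -0.9996 on the log2(CPM + 0.5) scale (exact two-sided permutation p = 0.0476, adjusted p = 0.107).

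Against the olive oil livers, which the wild-type comparison shares, Ltbp2 was called in labelled knockout livers as well, beside 5.91% of all tested genes called higher. It was 6.54-fold higher, and all 6 labelled knockout livers were above all 6 olive oil livers (log2 fold change 2.71, SE 0.40, edgeR adjusted p = 0.00104). Tgfbr2 (0.91, edgeR adjusted p = 0.105) and Itgav (0.42, edgeR adjusted p = 0.0879) were not called. Labelled knockout liver 35 was the highest of its group for 6 of the 9 genes, among them Tgfbr1 at 59.1 CPM and Tgfbr2 at 101 CPM. Without it the log2 fold changes were 2.74 for Ltbp2, 0.59 for Tgfbr2 and 0.42 for Itgav.

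On day 3 of hepatectomy, edgeR called 0 of the 7 tested genes between labelled knockout and wild-type livers, 0 had an unadjusted p under 0.05, DESeq2 and voom called 0, and 0.154% of all tested genes were called. Tgfbr1 had 36.02, 33.6, 30.1 and 28.2 CPM in labelled knockout livers and 31.8, 31.7, 24.3, 22.9 and 18.2 CPM in wild-type livers (log2 fold change 0.31, 95% interval -0.05 to 0.67). Ltbp2 had 12.6 CPM in labelled knockout liver 19 and 1.33 to 1.62 CPM in the other 3, against 0 to 6.79 CPM in wild-type livers. Its log2 fold change was 0.42 (interval -1.05 to 1.89) with liver 19 and -1.01 (interval -2.48 to 0.46) without it. Against day 0, which the wild-type comparison shares, edgeR called 0 of the 7 genes in labelled knockout livers, beside 12.2% of all tested genes. DESeq2 and voom called 0 as well. Only Ltbp2 had an unadjusted p under 0.05 (log2 fold change 1.87, edgeR adjusted p = 0.130), and without liver 19 its log2 fold change was 0.44. Tgfb2 had 3.16, 1.88, 1.07 and 0.812 CPM in the 4 labelled knockout livers, each above the day 0 maximum of 0.597 CPM, with a difference of 1.43 (exact two-sided permutation p = 0.0159, adjusted p = 0.107). That p is the smallest this test can give for 4 and 5 livers. A single gene at that p could not pass after adjustment over the 9 tests of this kind.

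The label differences were also compared between challenges in the joint fit. edgeR called 0 of the 9 genes in each of the 3 comparisons, beside 0% (Western diet and CCl4), 0.0158% (Western diet and hepatectomy) and 0.0395% (CCl4 and hepatectomy) of tested genes, and voom called 0 in each. Ltbp2 between Western diet and CCl4, at -1.26, was the only gene with an unadjusted p under 0.05 (edgeR adjusted p = 0.587).

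**Figure D4:**
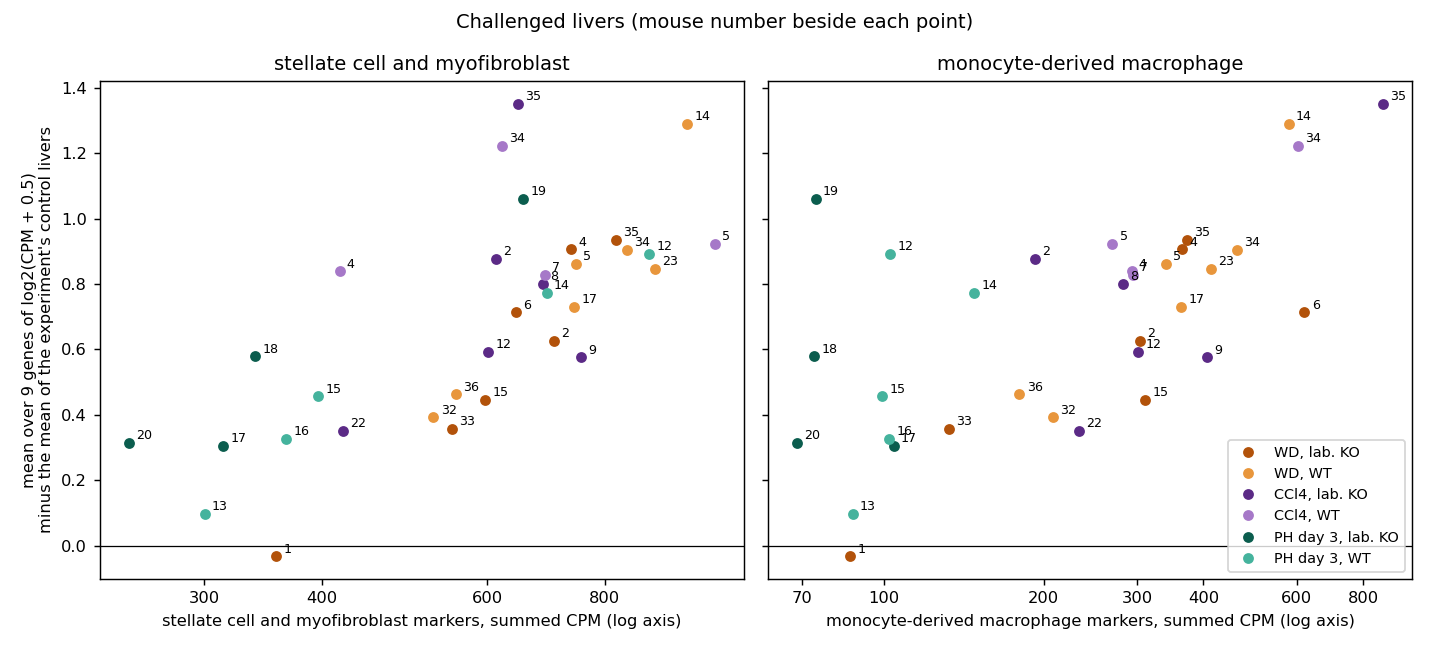
Each challenged liver's mean log2(CPM + 0.5) over the 9 genes minus that of its experiment's control livers, against the summed CPM of stellate cell and myofibroblast markers and of monocyte-derived macrophage markers (log axes). Points are livers with mouse numbers. Labelled knockout liver 1 on Western diet lies at -0.03, and wild-type liver 14 on Western diet, at 1.29, and CCl4 livers 35 and 34, at 1.35 and 1.22, lie highest.

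The other genes of the pathway were described through 6 lists that hold 57 genes besides the 9. The lists were chosen with earlier results of these data known, so the counts beside the shares of all tested genes are a description only. In wild-type livers on Western diet, edgeR called 28 of the 54 tested genes higher and 4 lower, beside 20.4% and 17.0% of all tested genes, with a median log2 fold change of 0.54, against -0.02 over all tested genes. After CCl4 it called 18 of 52 higher and 1 lower, beside 11.1% and 8.87% of all tested genes (median 0.51, against 0.05). Without livers 34 and 35 it called 17 higher and 2 lower. On day 3 of hepatectomy it called 12 of 45 higher and 2 lower, beside 9.87% and 7.5% of all tested genes (median 0.31, against -0.00). In labelled knockout against wild-type livers it called 0 under each challenge, with medians of -0.16, -0.14 and -0.05 and 4, 2 and 3 genes at an unadjusted p under 0.05. Here DESeq2 and voom also called 0, except for 1 gene each on day 3 of hepatectomy.

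Genes for latency and storage were called higher for 5 of 7 tested on Western diet and lower for 1, with a median log2 fold change of 1.07. After CCl4 the counts were 3 and 1 of 7, and on day 3 of hepatectomy 2 and 1 of 7, where 20.4%, 11.1% and 9.87% of all tested genes were called higher in these 3 comparisons. Fbn1, which encodes the fibrillin that anchors latent complexes, averaged 10.5 ± 3.18 CPM on Western diet (SD, n = 7) and 3.62 ± 0.9755 CPM on low-fat diet (SD, n = 9). It was also called after CCl4, at 13.2 ± 4.17 CPM (SD, n = 4) and 1.98 ± 1.20 CPM after olive oil (SD, n = 6). On day 3 of hepatectomy its log2 fold change of 1.74 (edgeR adjusted p = 0.0140) was 0.85, and not called, without wild-type liver 12. Emilin1, which encodes a matrix glycoprotein that holds back processing of the TGF-beta precursor, was called higher in all 3 comparisons, with log2 fold changes of 1.14 for the diet, 0.97 for CCl4 and 1.19 for hepatectomy. The CCl4 call was lost in 5 of 24 alternatives. Nrros, which tethers latent TGF-beta on macrophages, was called on Western diet (1.34) and after CCl4 (1.20). Ltbp4, another latent TGF-beta binding protein, was lower on day 3 of hepatectomy, at 17.6 ± 4.95 CPM and 36.6 ± 16.4 CPM on day 0 (SD, n = 5 each; log2 fold change -1.03, edgeR adjusted p = 0.0105). After CCl4 it had a log2 fold change of -1.39, a call that was lost in 15 of 24 alternatives.

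Genes for activation were called higher on Western diet for 7 of 13 tested (1 was called lower), after CCl4 for 6 of 11 and on day 3 of hepatectomy for 2 of 9, beside the same shares of all tested genes (20.4%, 11.1% and 9.87%). Thbs1, which encodes thrombospondin-1, an activator of latent TGF-beta, averaged 6.21 ± 2.30 CPM on Western diet (SD, n = 7) and 1.29 ± 0.631 CPM on low-fat diet (SD, n = 9; log2 fold change 2.26, edgeR adjusted p = 0.000290). After CCl4 its log2 fold change was 5.12. Without wild-type liver 34 it was 2.91 and not called (edgeR adjusted p = 0.109), the only 1 of 24 alternatives that lost the call. The fit without both livers 34 and 35 kept it. Mmp14, which encodes a membrane protease, was called after CCl4 (1.54) and on day 3 of hepatectomy (0.82). Mmp2, a gelatinase gene, was called on Western diet (1.47) and after CCl4 (1.21), where the call was lost without wild-type liver 34 or 5 and when the i5 index entered the fit. Itgb1, an integrin beta chain that pairs with alpha v among others, was called on day 3 of hepatectomy at a log2 fold change of 0.38.

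SMAD transducer genes had medians near 0 in all 3 comparisons (-0.08, 0.09 and -0.03). Of the 8, Smad4, the common SMAD, and Zfyve9, which presents SMADs to the receptor, were called lower on Western diet at log2 fold changes of -0.22 and -0.30. The Smad4 call was lost within both i5 indexes and the Zfyve9 call within D502. After CCl4 edgeR called 0 of the 8, with 0 at an unadjusted p under 0.05, while DESeq2 called 0 and voom 3. On day 3 of hepatectomy edgeR called 0, with 3 at an unadjusted p under 0.05, while DESeq2 called 2 and voom 0. Of co-receptors and decoys, Dcn and Bgn, which encode small matrix proteoglycans that bind TGF-beta, and Acvrl1, a type I receptor of endothelial cells, were called higher on Western diet, at 0.85, 0.86 and 1.36. Nrp1, a co-receptor, was called lower on day 3 of hepatectomy at -0.57. Among the genes of negative feedback, Pmepa1 (1.06) and Tgif1 (0.40) were called on Western diet and the SMAD repressor gene Ski (0.47) on day 3 of hepatectomy. The Tgif1 call was lost without wild-type liver 14 and within D502, and the Ski call in 4 of 22 alternatives. On Western diet the calls were 3 of 8 tested co-receptors and decoys and 2 of 6 feedback genes. After CCl4 they were 0 of 8 and 0 of 6, with 0 at an unadjusted p under 0.05. On day 3 of hepatectomy they were 1 of 6 and 1 of 5. The shares of all tested genes called higher were 20.4%, 11.1% and 9.87% in that order, and 7.5% were called lower after hepatectomy.

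Known target genes of TGF-beta were called higher for 14 of 18 tested on Western diet, 10 of 18 after CCl4 and 7 of 15 on day 3 of hepatectomy, with medians of 1.37, 2.67 and 1.28, where the shares of all tested genes called higher were 20.4%, 11.1% and 9.87%. On Western diet 1 was called lower. The list shares 4 of its 18 genes with the stellate cell and myofibroblast markers, and a gene can stand in more than 1 list. Col1a1, a chain of type I collagen, averaged 40.6 ± 17.4 CPM on Western diet (SD, n = 7) and 5.00 ± 2.62 CPM on low-fat diet (SD, n = 9). It averaged 114 ± 52.8 CPM after CCl4 (SD, n = 4) and 11.1 ± 3.32 CPM after olive oil (SD, n = 6), and 68.4 ± 55.3 CPM on day 3 and 10.2 ± 4.30 CPM on day 0 of hepatectomy (SD, n = 5 each). The log2 fold changes were 3.02, 3.36 and 2.75 in that order (edgeR adjusted p = 6.7e-06, 1.41e-05 and 0.00157). Cdkn1a, a cell cycle inhibitor, had the smallest p of the targets on day 3 of hepatectomy (3.12, edgeR adjusted p = 3.15e-08). Some target genes were called under each challenge, hepatectomy included, where edgeR called 0 of the 7 that could be tested of the 9 genes. Of the listed genes for latency and activation, Emilin1, Fbn1, Mmp14 and Itgb1 were called higher there and Ltbp4 lower. Whether targets and the 9 genes responded differently was not tested.

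**Figure D5:**
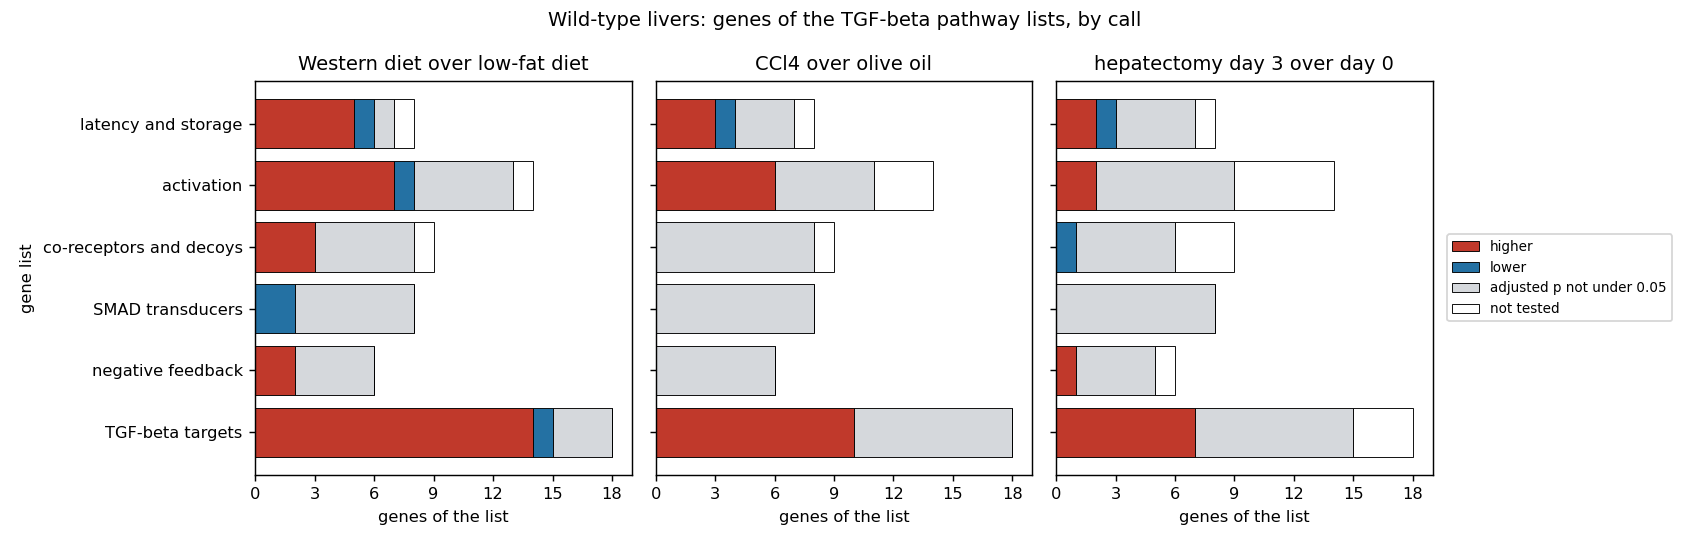
Number of genes of each pathway list that edgeR called higher, called lower, did not call or could not test in wild-type livers, for Western diet over low-fat diet, CCl4 over olive oil and hepatectomy day 3 over day 0. Bars run to the size of the list. Of the TGF-beta targets, 14 of 18, 10 of 18 and 7 of 15 tested genes were called higher.

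The genes most like each member were found by the root mean square difference of the means of log2(CPM + 0.5) over the 9 groups, centred within each experiment, among 10704 other genes. For Tgfb1 they were Pea15a, Hp and Cmtm3, at 0.037 to 0.058 against its median of 0.354 over all genes. That median ran from 0.219 for Tgfbr1 to 0.737 for Ltbp2, so distances of different members are not on 1 scale. For Tgfbr1 they were Zbtb8a, Eif2ak2 and Cbl (0.042 to 0.046), and for Tgfbr2 they included Cstb and Tmem237 (0.050 and 0.073). Ltbp1 was nearest to Dck, Sfxn3 and Plpp5 (0.074 to 0.106), and Itgav to Tmem67, Arhgap1 and Kctd10 (0.031 to 0.036). Ltbp2, which had the largest median, also had the largest distances to its nearest genes, Mcm2, Arhgap19 and Mcm3 (0.179 to 0.201). Mcm2 and Mcm3 encode subunits of the replicative helicase. Tgfbi was nearest to Akna, Bgn and Pitpnm1 (0.055 to 0.065). Among the members themselves, Tgfb1 was the ninth nearest gene to Ltbp1, at 0.115. The 9 groups are means of 4 to 9 livers of 3 experiments, and the values describe these libraries only.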

How the data were processed

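Liver mRNA libraries were analysed from the gene counts that the authors deposited, 1 table per experiment. Per the submitters' processing notes, the authors used TopHat2 2.0.11, HTSeq and the build GRCm38; the HTSeq version, the annotation and the strand setting are not given in the sources used here. Symbols were matched through the GENCODE annotation of GRCm38 for 36345 of 38293 genes (diet, CCl4) and 53274 of 53379 (hepatectomy). Samples were grouped by the labels.

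Counts were filtered with filterByExpr, scaled by TMM (trimmed mean of M values) and tested with edgeR 4.0.16 (R 4.3.3), quasi-likelihood F-test, 3 groups per experiment in 1 fit, Benjamini-Hochberg adjustment over all tested genes and a threshold of 0.05. CPM used the TMM library sizes. Differences between experiments came from 1 fit of all 53 libraries over the 36410 shared genes. Members below the filter were compared by an exact two-sided permutation test of log2(CPM + 0.5) with scipy 1.17.1. The scripts were tested on simulated data. The lowest chi-square per degree of freedom between replicates of a group was 5.27, so no library was a repeat sequencing of another of its group. Libraries of different groups were not compared in this way. Livers are the replicates, and nothing in the labels ties them to separate litters or days.

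The text names the 9 members throughout, from each pathway list up to 4 called genes with the smallest p in a comparison, the 3 genes nearest to each member that passed the filter in all experiments, and Bmp8b; 1 gene under this rule is not reported here. The members and lists were chosen with earlier results of these data known. Alternatives were DESeq2 1.42.0 (size factors and test), no filter, a filter of 1 CPM, limma 3.58.1 voom with quality weights, only the 2 groups compared, the i5 index as a covariate or within the index, a replicate block, a pseudocount of 1 and each liver left out.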

Additional observations from a re-analysis of the deposited data

Results flagged for a closer look

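Among the 81 combinations of a gene and a group, 7 had a liver farther from the rest of its group than Dixon's 95% critical value allows. A chance rate of about 1 in 20 holds only for independent normal values. Some of these values rest on few counts, and livers 19 and 35 each gave more than 1 flag. The 7 therefore cannot be set against that rate. On day 3 of hepatectomy, labelled knockout liver 19 had 12.6 CPM of Ltbp2, against 1.33 to 1.62 CPM in the other 3, and 2.37 CPM of Tgfb3, against 0.752 to 0.812 CPM. Labelled knockout liver 18 had the lowest Tgfb1, 4.51 CPM, against 6.14 to 6.32 CPM. After CCl4, labelled knockout liver 35 had 59.1 CPM of Tgfbr1, against 24.6 to 35.3 CPM, and 101 CPM of Tgfbr2, against 30.4 to 54.3 CPM. Wild-type liver 14 on Western diet had 5.49 CPM of Tgfb3, against 1.41 to 3.01 CPM in the other 6, and olive oil liver 30 had 2.26 CPM, against 0.257 to 0.956 CPM.

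The response of Tgfbr2 in wild-type livers differed between CCl4 and hepatectomy by 1.40 on the log2 scale (95% interval 0.67 to 2.12, edgeR adjusted p = 0.0137). Without wild-type CCl4 liver 34 it was 0.98 (edgeR adjusted p = 0.0942).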

How the results depend on the processing

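Of 930 values of 33 fold changes of the 9 genes under other settings, 865 kept their direction and side of the threshold, 61 lost the call, 2 gained one and 2 changed sign. These 33 are not all the tests made of the 9 genes. The counts of calls given below include more gained calls, such as those by voom between Western diet and hepatectomy. The sign changed in wild-type livers on day 3 of hepatectomy for Tgfbr2 in the replicate block of mice 12, 15 and 16 (-0.025) and for Itgav without wild-type liver 15 (-0.037, with 0.24 as the highest value when another liver was left out). The cause was not tested. Calls among the 9 genes fell to 3 within index D502 in wild-type livers on Western diet (8 to 9 with a liver left out). In labelled knockout livers against low-fat diet they were 3 within D501, 3 within D502 and 4 to 8 with a liver left out. After CCl4 in labelled knockout livers they were 3 with the index as covariate and 1 to 2 with a liver left out. Between Western diet and hepatectomy voom called 3 (0 to 1 with a liver left out), and between CCl4 and hepatectomy voom called 0 (0 to 1).

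Same-numbered mice on day 3 and day 0 had correlated deviations of -0.0219 to 0.0914, and livers with different numbers -0.0914 to 0.0529. For day 3 livers 12, 15 and 16, the same-numbered day 0 liver gave the highest value (0.0338, 0.0744 and 0.0914). The values of mice 15 and 16 were the highest of all pairs. For mice 13 and 14 the values were negative (-0.0124 and -0.0219). In whether the title carries an N, mice 12, 15 and 16 match between the days, and mice 13 and 14 do not. Whether the numbers pair the livers is not settled by these values. Both fits with a replicate block called 0 of the 6 members that could be fitted, and 1710 and 1277 of all genes, against 1915 without it.

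Counts over all genes moved by more than 1.5 times in these settings. Within D502 they were 1401 on Western diet in wild-type livers (4869 in all), 638 in labelled knockout livers (3282, and 1581 within D501) and 1 between the labels (2). With the index as covariate they were 3599 in wild-type (2331) and 2569 in labelled knockout livers (1085) after CCl4, where voom gave 1845 and the fit without livers 34 and 35 gave 1852. Between the labels after CCl4 (1) they were 17 by DESeq2, 2 by voom, 2 without livers 34 and 35 and 0 within D503, and on day 3 of hepatectomy (17) 63 by DESeq2, 182 without a filter and 3 to 40 with a liver left out. Between Western diet and hepatectomy (447) they were 1188 by voom, 295 without a filter and 282 without day 0 liver 13, and between CCl4 and hepatectomy (770) 513 without a filter and 451 to 1178 with a liver left out. For label differences between challenges, leaving out labelled knockout CCl4 liver 35 gave 169 (0) and 60 (5), voom gave 1, 0 and 8, and the count of 2 between Western diet and hepatectomy was 1 at the lowest.

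Tgfb2 in the toxin experiment and Tgfb2 and Tgfb3 in the surgery experiment had too few counts for the fit, and intervals cover the spread between livers only.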
